A study of Homo sapiens with 6 samples.

Results

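The 32 genes described here encode the enzymes of cholesterol synthesis, the SREBP transcription factors and the proteins that hold or release them, the enzymes of fatty acid synthesis and desaturation, 1 sterol carrier and 2 sterol exporters. They were taken by gene name from the deposited table of read counts, which lists 58735 genes, and all 32 were among the 15430 genes with enough counts to be tested. The comparison asked how the expression of these genes differed after knockdown of DAB2IP, a RasGAP that restrains Ras and NF-κB signaling, in MCF10A cells, an established nonmalignant line of human breast epithelium. 3 libraries were from MCF10A cells given siRNA against DAB2IP (siDAB2IP) and 3 from MCF10A cells given a pool of nontargeting siRNA (siControl), with RNA taken 48 hours after transfection. Apart from the siRNA, the groups shared the same cells and medium, which held hydrocortisone at 0.5 ug/mL, cholera toxin at 100 ng/mL, epidermal growth factor at 20 ng/mL, insulin at 10 ug/mL and horse serum at 5%. Serum carries lipoprotein cholesterol, which lowers SREBP cleavage, and insulin raises SREBP1. The labels do not say whether replicates were separate cultures. The p-values set the difference between groups against the spread between these libraries, which may be technical.

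Cells make cholesterol from acetyl-CoA through mevalonate, squalene and a series of sterols, and the genes for most of these steps are switched on together. SREBP2, the product of SREBF2, acts mainly on cholesterol genes, and SREBP1, the product of SREBF1, acts mainly on fatty acid genes. Both are made as precursors in the endoplasmic reticulum. SCAP carries them to the Golgi for cleavage when sterols are low, and the INSIG proteins hold SCAP back when sterols are high. INSIG1 is itself a target of the SREBPs. Excess sterol derivatives activate LXR receptors, which switch on the exporters ABCA1 and ABCG1.

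Expression is given as CPM, a gene's share of the library's counts after TMM scaling in edgeR, and as FPKM, which also divides by gene length, where levels of different genes are compared. DAB2IP itself was at 103.1, 94.25 and 77.38 CPM in the siControl libraries and at 27.47, 25.59 and 22.38 CPM in the siDAB2IP libraries. The groups did not overlap, and the siDAB2IP level was 27.5% of control (log2 fold change −1.86, SE 0.13, edgeR adjusted p = 9.7e-05). Library totals ranged from 16353783 to 21916062 counts. Of 10 mammary epithelial markers, all 10 were expressed, with a summed level of 8930 to 10800 CPM in siControl and 5950 to 7210 CPM in siDAB2IP, and 3 of them fell. Of 10 markers of immune, endothelial, stromal and fat cells, 5 had too few counts to be tested, CD3E and ADIPOQ had no counts in any library, and the summed level was 27.6 to 34.0 CPM in siControl and 32.6 to 40.2 CPM in siDAB2IP. Of the 5 tested, 1 rose (COL1A1, a collagen gene named after its values were seen, log2 fold change 0.78) and the other 4 had lower means without passing. The summed level of 10 proliferation markers was 693 to 982 CPM in siControl and 149 to 543 CPM in siDAB2IP. It was lowest in siDAB2IP replicate 3, and 7 of the 10 fell by edgeR, 9 with a replicate block and 2 by DESeq2. Of all genes tested, 6.55% rose and 7.65% fell by edgeR, 11.4% fell with the block, and 1375 of 14090 fell by DESeq2. The part of the difference in proliferation markers in the values below was not tested. In RNA from whole cultures, fewer cells of a kind and less RNA per cell cannot be told apart.

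The members did not move in 1 direction after DAB2IP knockdown. INSIG1, the feedback protein that retains SCAP, fell to 49.77% of its control level, and CYP51A1, the lanosterol demethylase, fell to 76.59%. MSMO1, the oxidase that removes the sterol methyl groups after CYP51A1, rose to 154.4% of control, FADS2, a desaturase of polyunsaturated fatty acids, rose to 151.9%, and the cholesterol exporter ABCA1 rose to 256.8%. The 2 genes for the SREBPs themselves did not pass the test. In all, 3 of 32 members rose (9.38%, against 6.55% of all genes tested) and 2 fell (6.25%, against 7.65%), by edgeR's quasi-likelihood test with an adjusted p under 0.05 over all genes. These shares lie near those of all genes. Without siDAB2IP replicate 3, the library with the lowest proliferation markers, 5 members rose (PMVK, MSMO1, ACACA, SCD and ABCA1) and 2 fell (INSIG1 and LSS). In that fit, 1172 of all 15743 genes tested rose and 1352 fell. Without siControl replicate 2 only INSIG1 passed, where 264 of all 15838 genes tested rose and 459 fell.

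20 of the 32 members had a higher mean in siDAB2IP and 12 a lower one, and the median of the log2 fold changes was 0.13, beside 0.01 over all genes tested. The siControl and siDAB2IP values did not overlap for 11 members (8 higher, 3 lower), or 34.4%, and the same held for 35.9% of all genes tested. Without adjustment, 11 members (34.4%) had a p under 0.05, against 30% of all genes tested. The libraries with the same replicate number deviated together across genes, and comparing them pair by pair, 15 members (46.9%) were higher in all 3 pairs and 4 (12.5%) were lower in all 3, where 27.9% and 28.3% of all genes tested were. With the replicate number as a block in the same test, 6 members rose (18.8%) and 3 fell (9.38%). Of all genes tested, 9.59% rose and 11.4% fell in that fit. The 4 members gained with the block were PMVK, NSDHL and SCD, which were higher, and SQLE, which was lower. For all 27 members that did not pass without the block, the 95% interval of the log2 fold change lay between −0.78 and 0.84, so that changes of more than 2-fold were outside it.

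**Figure D1:**
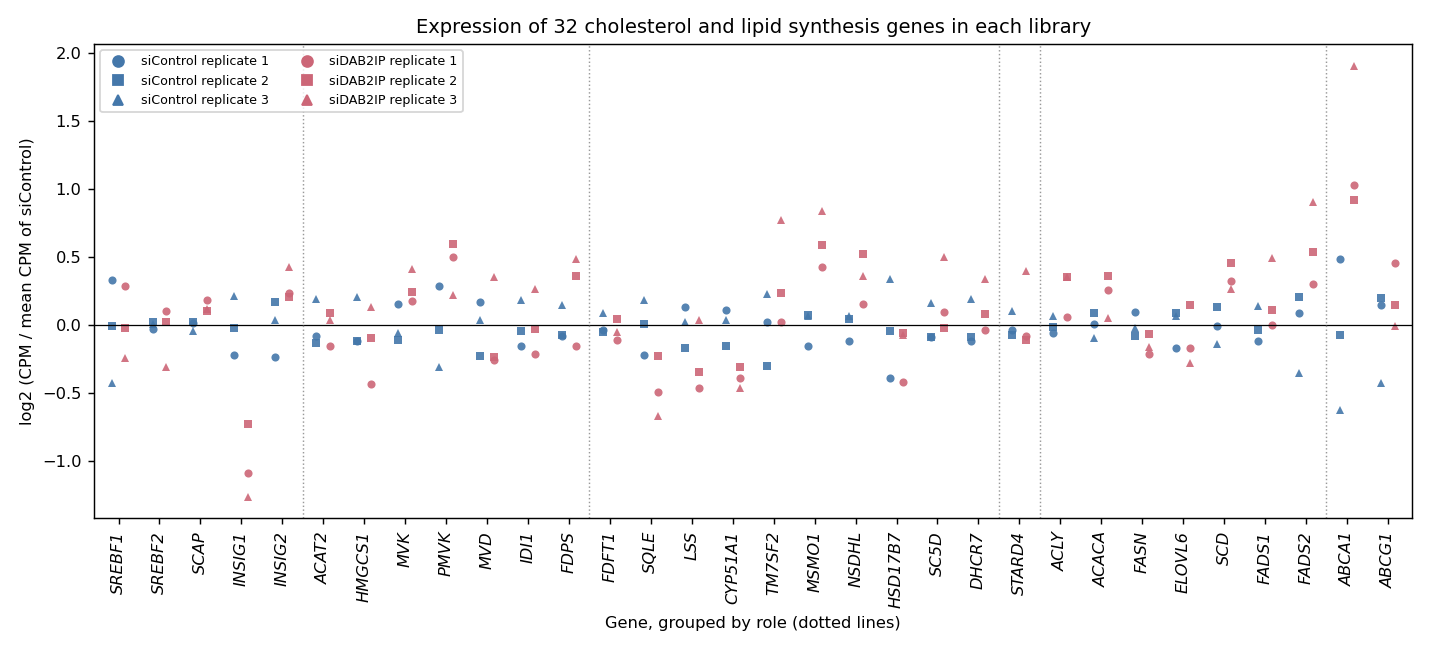
Expression of the 32 genes in each of the 6 libraries, as the log2 ratio of its CPM to the mean CPM of the 3 siControl libraries, with genes grouped by role between dotted lines. INSIG1 lay below 0 in all siDAB2IP libraries and ABCA1 above it, while the SREBF1 and SREBF2 points of the groups were intermixed.

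The SREBP regulators showed a large change in 1 gene. SREBF1 (chr17:17810399-17837002, minus strand, hg38) was at 700.6, 552.4 and 414.2 CPM in siControl and 678.4, 548.0 and 470.6 CPM in siDAB2IP. The spread among siControl libraries was wider than the difference between the groups, and libraries with the same replicate number lay close to each other. Its log2 fold change was 0.03 (95% interval −0.41 to 0.46, edgeR adjusted p = 0.949). SREBF2 (chr22:41833079-41907308, plus strand) was at 560.3, 582.5 and 576.6 CPM in siControl and 616.4, 581.1 and 462.0 CPM in siDAB2IP, where replicate 3 was the lowest of all 6 and replicate 1 the highest. Its log2 fold change was −0.05 (95% interval −0.33 to 0.23, edgeR adjusted p = 0.828). SREBF1 overlaps RAI1 on the opposite strand, whose counts amounted to 17.5% of those of SREBF1, and the strand used in counting is not given in the sources used here.

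INSIG1 (chr7:155297776-155310235, plus strand) was at 166.3, 191.4 and 224.5 CPM in siControl and at 91.39, 117.4 and 80.88 CPM in siDAB2IP. The highest siDAB2IP library lay well below the lowest siControl library. The log2 fold change was −1.01 (SE 0.16, 95% interval −1.35 to −0.66, edgeR adjusted p = 0.00384), and within the 3 pairs it was −0.86, −0.70 and −1.47. INSIG1 was the only member to pass whichever of the 6 libraries was left out, with log2 fold changes from −1.17 to −0.89. Its relative INSIG2, which also retains SCAP but is not driven by SREBP in the same way, went from 17.7 ± 2.47 CPM (SD, n = 3) to 21.7 ± 1.81 CPM. The INSIG2 values did not overlap, but the difference did not pass the test (log2 fold change 0.29, SE 0.14, edgeR adjusted p = 0.203). SCAP, the sterol sensor and escort, was at 269.6 ± 6.64 CPM and 295.9 ± 9.23 CPM, also without overlap and without passing (log2 fold change 0.13, edgeR adjusted p = 0.375).

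SREBPs bind sterol regulatory elements in promoters together with the factor NF-Y, which reads the sequence CCAAT, and with Sp1, which reads GC boxes. In the RefSeq promoter windows of build GRCh38.p14, which run from 250 bases before each start to 50 after, 27 of the 32 members had at least 1 window. Both strands were searched, and none of the motifs contains another. The element core TCACNCCAC was found for 1 of 27 members (3.7%), beside 1.45% of the 10600 tested genes with a window. CCAAT was found for 19 of 27 (70.4%) beside 42.8%, GGGCGG for 26 of 27 (96.3%) beside 75.9%, and the E-box CACGTG for 5 of 27 (18.5%) beside 12.5%. Members had 1.37 windows a gene and the tested genes 1.46. The single core match lay in the window of SREBF2, 133 bases before its RefSeq start, and is printed with 10 bases on each side at chr22:41832962-41832990 (plus strand) with the core in capitals. The upstream stretches of INSIG1 at chr7:155297628-155297775 and of MSMO1 at chr4:165327419-165327622 (both plus strand) are printed up to the annotated gene start, with CCAAT or its reverse complement ATTGG in capitals. They were chosen after their values were seen, as the member that fell most and the enzyme that rose most.
SREBF2: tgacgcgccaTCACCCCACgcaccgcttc
INSIG1: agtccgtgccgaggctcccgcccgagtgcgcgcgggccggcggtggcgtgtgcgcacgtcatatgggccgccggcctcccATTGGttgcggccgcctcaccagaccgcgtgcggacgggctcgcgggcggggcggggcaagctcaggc
MSMO1: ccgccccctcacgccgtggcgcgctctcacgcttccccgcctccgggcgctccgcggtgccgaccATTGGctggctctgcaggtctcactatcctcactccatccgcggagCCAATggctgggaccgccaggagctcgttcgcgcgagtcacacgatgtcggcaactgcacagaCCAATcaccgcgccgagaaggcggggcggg

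INSIG1 had 1 CCAAT match in its whole window and MSMO1 had 4, of which the printed stretch holds 3. CCAAT was thus present in both windows. The opposite directions of INSIG1 and MSMO1 follow from how these genes were chosen. Whether CCAAT goes with the direction of change was not tested. Neither window held the TCACNCCAC core, and a missing match says only that these letters are not in the window.

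**Figure D2:**
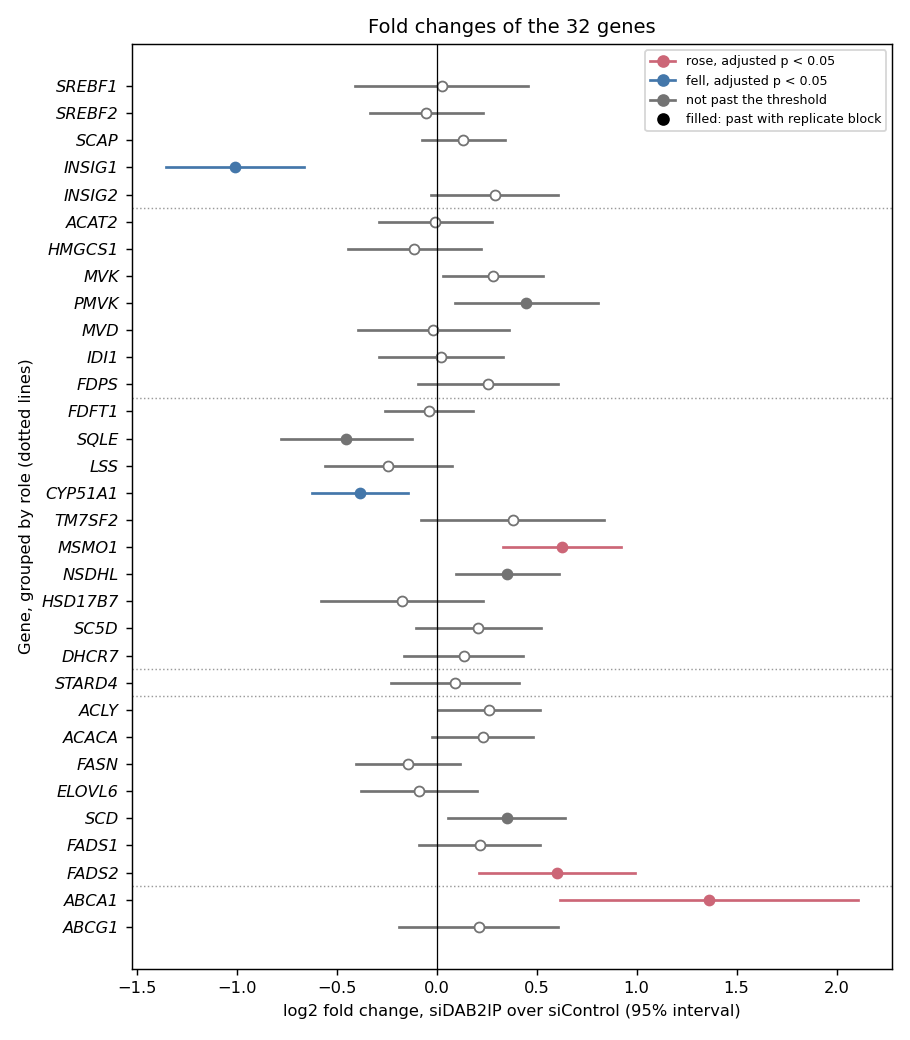
Log2 fold change of siDAB2IP over siControl for each of the 32 genes, with bars for the 95% interval from edgeR's quasi-likelihood fit (3 libraries a group), colored by the call and filled where the gene passed with the replicate block. INSIG1 at −1.01 and ABCA1 at 1.36 lie at the ends of the range, and most intervals include 0.

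The 7 genes of the mevalonate steps did not pass the edgeR test, and none passed in DESeq2. In edgeR, 2 of them had an unadjusted p under 0.05, where 30% of all genes tested did. HMGCS1, which makes the precursor of mevalonate, had a log2 fold change of −0.11 (SE 0.15) at 100.6 ± 13.4 CPM in siControl and 93.1 ± 18.0 CPM in siDAB2IP. ACAT2, which makes acetoacetyl-CoA, stood at −0.01, MVD, the mevalonate decarboxylase, at −0.02 and IDI1, the isomerase of isopentenyl pyrophosphate, at 0.02, all on the log2 scale. The larger values in this stretch belonged to the 2 kinases and to the synthase that follows. MVK, mevalonate kinase, was at 41.5 ± 4.14 CPM in siControl and 50.4 ± 4.32 CPM in siDAB2IP, without overlap (log2 fold change 0.28, edgeR adjusted p = 0.122). PMVK, phosphomevalonate kinase, went from 27.8 ± 5.74 to 38.0 ± 4.95 CPM (log2 fold change 0.45, SE 0.16, edgeR adjusted p = 0.0913, and 0.0233 with the replicate block). FDPS, which makes farnesyl pyrophosphate, had a log2 fold change of 0.26 (SE 0.16, edgeR adjusted p = 0.312). ACAT2 overlaps TCP1 on the opposite strand, whose counts were 730% of its own, and MVK overlaps MMAB, with 49.8%, so their values are the least certain of this group. FDPS overlaps RUSC1-AS1 on the opposite strand, whose counts were 21.8% of those of FDPS.

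After squalene, the lower and the higher members stood in neighboring steps. FDFT1, which makes squalene, had a log2 fold change of −0.04, and the next 3 steps were all lower in siDAB2IP: SQLE, the squalene epoxidase, at −0.45, LSS, the lanosterol synthase, at −0.24, and CYP51A1 at −0.38. The following 3 were all higher: TM7SF2, a sterol reductase, at 0.38, MSMO1 at 0.63, and NSDHL, the dehydrogenase that works with MSMO1, at 0.35. The last enzymes were mixed, with HSD17B7, the ketosteroid reductase of the same demethylation, at −0.17, SC5D, a desaturase, at 0.21, and DHCR7, which makes cholesterol from its last precursor, at 0.14. Of these 10, only MSMO1 and CYP51A1 passed the test without the block, so the order of signs is a description. The order also depends on the genes listed. LBR, a gene outside the members, catalyzes the same reduction as TM7SF2 and fell.

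CYP51A1 (chr7:92112151-92134803, minus strand) was at 50.84, 42.30 and 48.38 CPM in siControl and 35.99, 38.05 and 34.27 CPM in siDAB2IP. The groups did not overlap, and their nearest values were 42.30 and 38.05 CPM. The fall was small (log2 fold change −0.38, SE 0.11, edgeR adjusted p = 0.0415) and did not pass when any 1 of the 6 libraries was left out, with an adjusted p between 0.0531 and 0.106. Counts on its pseudogenes were at most 0.694% of its own.

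MSMO1 (chr4:165327623-165343160, plus strand) was at 349.9, 410.4 and 408.8 CPM in siControl and 524.1, 585.3 and 696.2 CPM in siDAB2IP. The lowest siDAB2IP library was above every siControl library by more than 100 CPM. The rise was 0.63 on the log2 scale (SE 0.13, edgeR adjusted p = 0.0138), and the 3 pairs gave 0.58, 0.51 and 0.77. The call was lost when siControl replicate 1 or siControl replicate 2 was left out (adjusted p = 0.0679 and 0.0608).

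SQLE, a rate-limiting step of the sterol branch, went from 736.9 ± 101.9 to 538.9 ± 83.9 CPM, and the groups did not overlap (log2 fold change −0.45, SE 0.15, edgeR adjusted p = 0.0687). It passed with the replicate block (adjusted p = 0.0423) and in DESeq2 (adjusted p = 0.0177). NSDHL went from 46.7 ± 3.09 to 59.7 ± 7.62 CPM, also without overlap (log2 fold change 0.35, SE 0.12, edgeR adjusted p = 0.0694, and 0.0257 with the block). LSS had an edgeR adjusted p of 0.291, but of 0.0263 with a log2 fold change of −0.40 when siDAB2IP replicate 3 was left out. TM7SF2 overlaps VPS51 on the same strand, whose counts were 319% of its own. STARD4, which carries cholesterol between membranes, was at 38.8 ± 2.53 and 41.4 ± 8.57 CPM (log2 fold change 0.09, edgeR adjusted p = 0.723).

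Among the 7 fatty acid genes, FADS2 rose and the other 6 did not pass the test. FADS2 (chr11:61792980-61867354, plus strand) was at 89.41, 97.17 and 65.99 CPM in siControl and at 103.9, 122.1 and 157.8 CPM in siDAB2IP. The groups did not overlap, but siControl replicate 2 and siDAB2IP replicate 1 were close, and replicate 3 was lowest in siControl and highest in siDAB2IP. The log2 fold change was 0.60 (SE 0.18, edgeR adjusted p = 0.0462), with 0.22, 0.33 and 1.26 in the 3 pairs. Without siDAB2IP replicate 3 it was 0.42 (adjusted p = 0.0673), and of the 6 libraries only siDAB2IP replicate 1 could be left out with the call kept. FADS2 overlaps FADS1 on the opposite strand, with 116% of the counts of FADS2, and FEN1 on its own strand, with 26.9%, so the values of FADS1 and FADS2 are uncertain where the strand of counting is not known.

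SCD, which makes monounsaturated fatty acids, went from 2373 ± 222.5 to 3025 ± 202.4 CPM without overlap (log2 fold change 0.35, SE 0.13, edgeR adjusted p = 0.102). It passed with the replicate block (adjusted p = 0.0490) and in DESeq2 (adjusted p = 0.0253). FADS1, the partner of FADS2, had a log2 fold change of 0.22 (edgeR adjusted p = 0.325). Upstream, ACLY, which supplies acetyl-CoA, and ACACA, which makes malonyl-CoA, stood at 0.26 and 0.23, with edgeR adjusted p values of 0.156 and 0.206. FASN, the fatty acid synthase, stood at −0.14 and ELOVL6, an elongase, at −0.09, with edgeR adjusted p values of 0.453 and 0.702.

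ABCA1 (chr9:104781002-104928237, minus strand) had the largest fold change and the lowest level of the members. It was at 4.174, 2.832 and 1.938 CPM in siControl and at 6.093, 5.649 and 11.19 CPM in siDAB2IP. All siDAB2IP values were above all siControl values, and siDAB2IP replicate 3 stood apart at 11.19 CPM. The log2 fold change was 1.36 (SE 0.34, 95% interval 0.61 to 2.11, edgeR adjusted p = 0.0258), the widest interval of the 32. Without siDAB2IP replicate 3 it was 0.98 (adjusted p = 0.0337), and the call was lost without siControl replicate 2 (adjusted p = 0.104) and without siControl replicate 3 (adjusted p = 0.0945). ABCG1, the other exporter, was at 31.9 ± 7.14 and 37.0 ± 6.20 CPM (log2 fold change 0.21, SE 0.18, edgeR adjusted p = 0.476).

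Per gene length, SCD was the most abundant member in siControl, at 438.6 ± 42.1 FPKM (SD, n = 3). SQLE followed at 169.7 ± 23.5 FPKM, FASN at 166.8 ± 10.5, MSMO1 at 133.6 ± 12.01 and DHCR7 at 98.4 ± 11.9, and SQLE and FASN did not differ beyond their spread. INSIG2, at 4.44 ± 0.63 FPKM, and ABCA1, at 0.26 ± 0.10 FPKM, were the least abundant. In siDAB2IP, SCD stayed the most abundant at 558.1 ± 37.2 FPKM, MSMO1 was the next at 205.8 ± 29.5 FPKM, and SQLE was the fourth at 123.8 ± 19.3 FPKM. INSIG1 went from the tenth place, at 52.7 ± 7.91 FPKM, to the seventeenth, at 26.2 ± 5.09 FPKM.

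**Figure D3:**
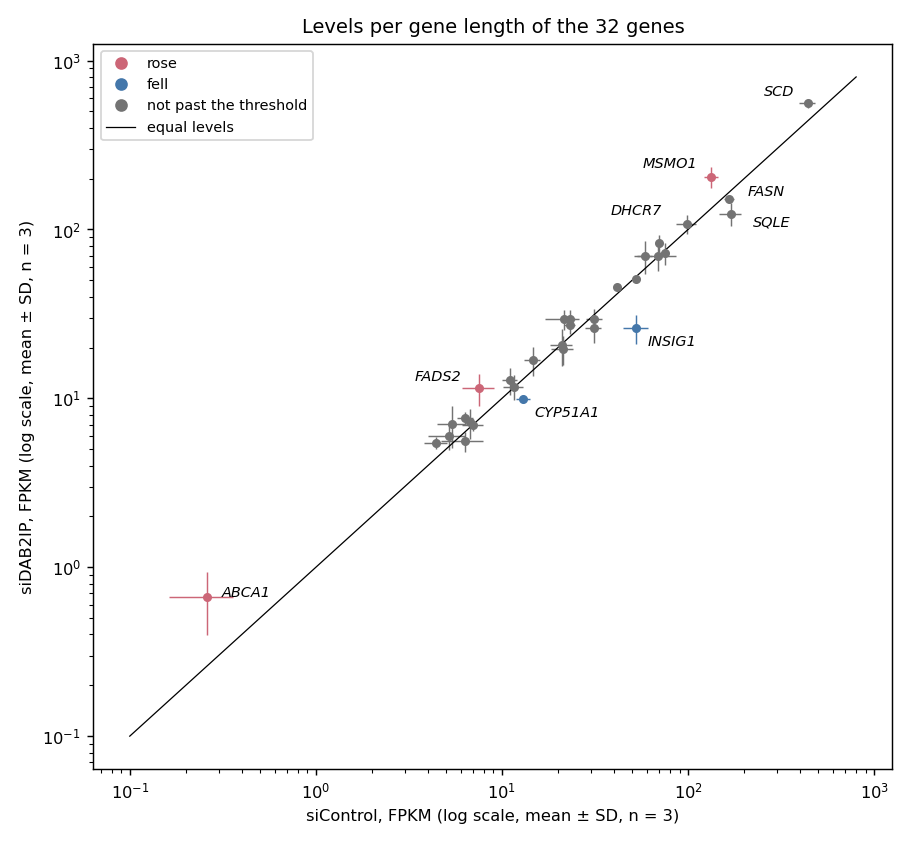
FPKM in siControl and siDAB2IP for the 32 genes (mean ± SD, n = 3, both axes on log scales), with a line of equal levels and colors for the call. INSIG1 and CYP51A1 fall below the line and MSMO1, FADS2 and ABCA1 above it, and ABCA1 lies far below the other genes at 0.26 FPKM in siControl.

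Ratios of FPKM between 2 members within a library do not depend on the scaling between libraries. The pairs were chosen after the values of the members were seen, so the ratios are given with no test. INSIG1 exceeded INSIG2 by 11.99, 10.4 and 13.3 times in siControl and by 4.74, 6.22 and 3.68 times in siDAB2IP. MSMO1 stood at 8.53, 12.03 and 10.5 times CYP51A1 in siControl and at 18.0, 19.1 and 25.2 times in siDAB2IP. The siDAB2IP libraries thus had a lower share of INSIG1 among the INSIG transcripts and a higher excess of MSMO1 over CYP51A1. The genes of each pair had already separated between the groups in opposite directions. The lack of overlap in these ratios therefore follows from the choice of pairs and adds no result.

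MSMO1 was below SQLE in all siControl libraries, with ratios of 0.822, 0.826 and 0.727, and above it in all siDAB2IP libraries, with 1.49, 1.39 and 2.24. SQLE and MSMO1 had also separated in opposite directions, so their ratios could not overlap. The ratio of SCD to FASN was 2.44, 3.05 and 2.43 in siControl and 3.82, 3.77 and 3.53 in siDAB2IP. SREBF1 and SREBF2 were close to each other in every library, with ratios from 0.676 to 1.18 in siControl and from 0.888 to 1.04 in siDAB2IP, which overlapped. The ratio of ABCA1 to ABCG1 was 0.0637, 0.0416 and 0.0441 in siControl and 0.0750, 0.0862 and 0.190 in siDAB2IP, and that of FADS2 to FADS1 was 0.787, 0.811 and 0.486 against 0.845, 0.919 and 0.913.

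**Figure D4:**
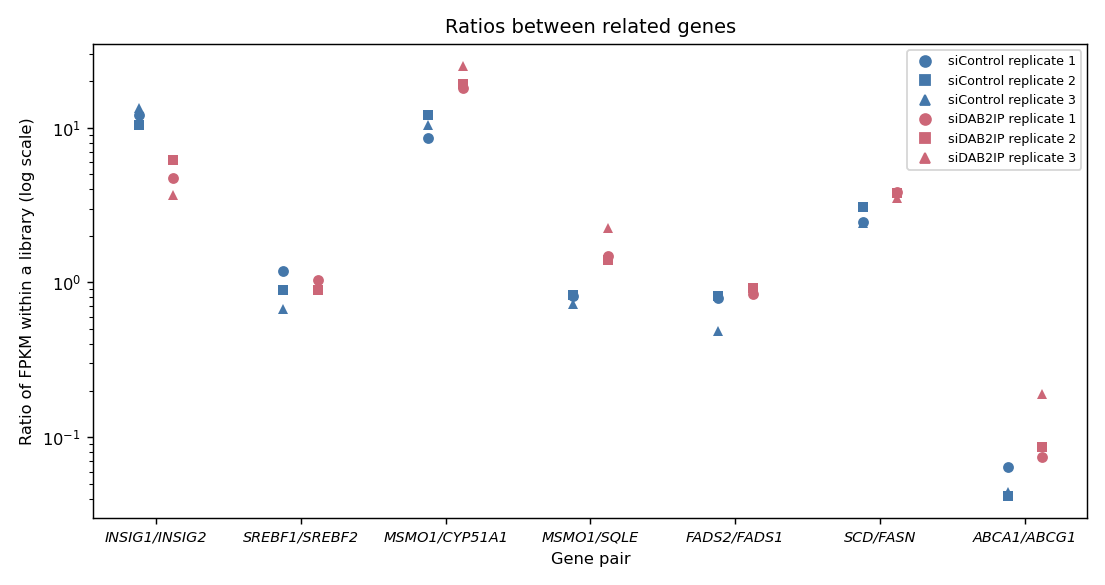
Ratio of FPKM between 2 related genes in each library (log scale), with 3 siControl and 3 siDAB2IP libraries for each pair. The MSMO1 to SQLE ratio crosses 1 between the groups, and the SREBF1 to SREBF2 ratios of the groups overlap.

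The same question was put to 78 other genes of sterol and fatty acid handling in 6 lists, of which 73 had enough counts to be tested. 10 of them rose (13.7%, against 6.55% of all genes tested) and 8 fell (10.96%, against 7.65%), and their median on the log2 scale was 0.07. With the replicate block, 16 rose (21.9%, against 9.59%) and 8 fell (10.96%, against 11.4%). Of the 18 called genes, 7 passed whichever of the 6 libraries was left out: LBR, LPIN1, ME1, RDH11, LIPA, GRAMD1B and ELOVL7.

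The 10 genes that cleave, degrade or sense the SREBPs and their partners did not pass the edgeR test, and none passed in DESeq2. Their log2 fold changes lay between −0.22 and 0.34. In edgeR, 1 of these 10 had an unadjusted p under 0.05, where 30% of all genes tested did. Among 14 further sterol and isoprenoid enzymes, LBR, a nuclear envelope protein that is also a sterol reductase, fell. The other 13 did not pass, where 7.65% of all genes tested fell. LBR went from 372.5 ± 51.8 to 198.6 ± 39.8 CPM (log2 fold change −0.91, SE 0.16, edgeR adjusted p = 0.00692). LBR and TM7SF2 catalyze the same reduction, and TM7SF2 had the higher mean in siDAB2IP, although its difference did not pass.

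Of 14 lipid genes known to respond to SREBPs, 2 rose and 3 fell, where 6.55% and 7.65% of all genes tested did. RDH11, a retinol dehydrogenase, rose from 109.2 ± 5.77 to 184.1 ± 10.4 CPM (log2 fold change 0.75, SE 0.10, edgeR adjusted p = 0.00171), and ME1, the malic enzyme that supplies NADPH, rose by 0.80 (adjusted p = 0.00275). LPIN1, a phosphatidate phosphatase, fell by 0.62 on the log2 scale (edgeR adjusted p = 0.00893), ACSL1, an acyl-CoA synthetase, by 0.61 (adjusted p = 0.0285) and AACS, acetoacetyl-CoA synthetase, by 0.40 (adjusted p = 0.0285). AACS did not pass without siControl replicate 2, siControl replicate 3 or siDAB2IP replicate 1, nor did ACSL1 without siControl replicate 1, siControl replicate 2 or siDAB2IP replicate 2.

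Of 7 LXR receptors and targets outside the members, 1 rose and 1 fell, where 6.55% and 7.65% of all genes tested did. LPCAT3, a phospholipid acyltransferase, rose from 30.1 ± 1.39 to 42.5 ± 3.31 CPM (log2 fold change 0.50, SE 0.11, edgeR adjusted p = 0.0150). NR1H2, which encodes LXR beta, fell by 0.47 on the log2 scale (edgeR adjusted p = 0.0232). LPCAT3 overlaps C1S and EMG1 on the opposite strand, whose counts were 212% and 77.0% of its own, so its value is uncertain. LPCAT3 did not pass when any 1 of the siControl libraries was left out, and NR1H2 passed only without siDAB2IP replicate 3 among the 6 left out in turn.

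Of 16 genes of sterol uptake, traffic and storage, 5 rose and 1 fell, where 6.55% and 7.65% of all genes tested did. LIPA, the lysosomal acid lipase that frees cholesterol from lipoprotein esters, was at 152.0, 177.0 and 169.9 CPM in siControl and 64.14, 65.58 and 64.24 CPM in siDAB2IP. The siDAB2IP libraries agreed closely, and the log2 fold change was −1.36 (SE 0.10, edgeR adjusted p = 9.7e-05). GRAMD1B, which moves cholesterol from the plasma membrane to the endoplasmic reticulum, was at 2.181, 1.764 and 2.114 CPM in siControl and 5.923, 6.979 and 9.335 CPM in siDAB2IP. It had the largest rise of the 73 genes among those that passed (log2 fold change 1.88, SE 0.24, edgeR adjusted p = 0.00171).

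NPC1 and NPC2, which take cholesterol out of lysosomes after LIPA, rose by 0.38 and 0.51 on the log2 scale (edgeR adjusted p = 0.0332 and 0.0424). The lipoprotein receptors SCARB1 and LRP8 rose by 0.63 and 0.49 (adjusted p = 0.0122 and 0.0130). NPC1 passed without siDAB2IP replicate 1 or 3 and NPC2 only without siDAB2IP replicate 3, and SCARB1 and LRP8 did not pass without siControl replicate 1 or 2. The lysosomal lipase and the transporters that act after it thus went in opposite directions.

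Of 12 genes for fatty acid elongation and desaturation outside the members, 2 rose and 2 fell. Of all genes tested, 6.55% rose and 7.65% fell. ELOVL7, an elongase of very long chains, fell from 11.17 ± 2.08 to 1.731 ± 0.359 CPM, to 0.155 of control, with an edgeR log2 fold change of −2.69 (SE 0.23, adjusted p = 0.000229). HACD1, a dehydratase of the elongation cycle, fell by 0.57 on the log2 scale and its relative HACD3 rose by 0.51 (edgeR adjusted p = 0.0320 and 0.0167). FADS3, next to FADS1 and FADS2 in the genome, rose by 0.38 (edgeR adjusted p = 0.0424). FADS3 passed only without siDAB2IP replicate 2, HACD1 only without siControl replicate 1 or siDAB2IP replicate 3, and HACD3 did not pass without siControl replicate 1 or 3.

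**Figure D5:**
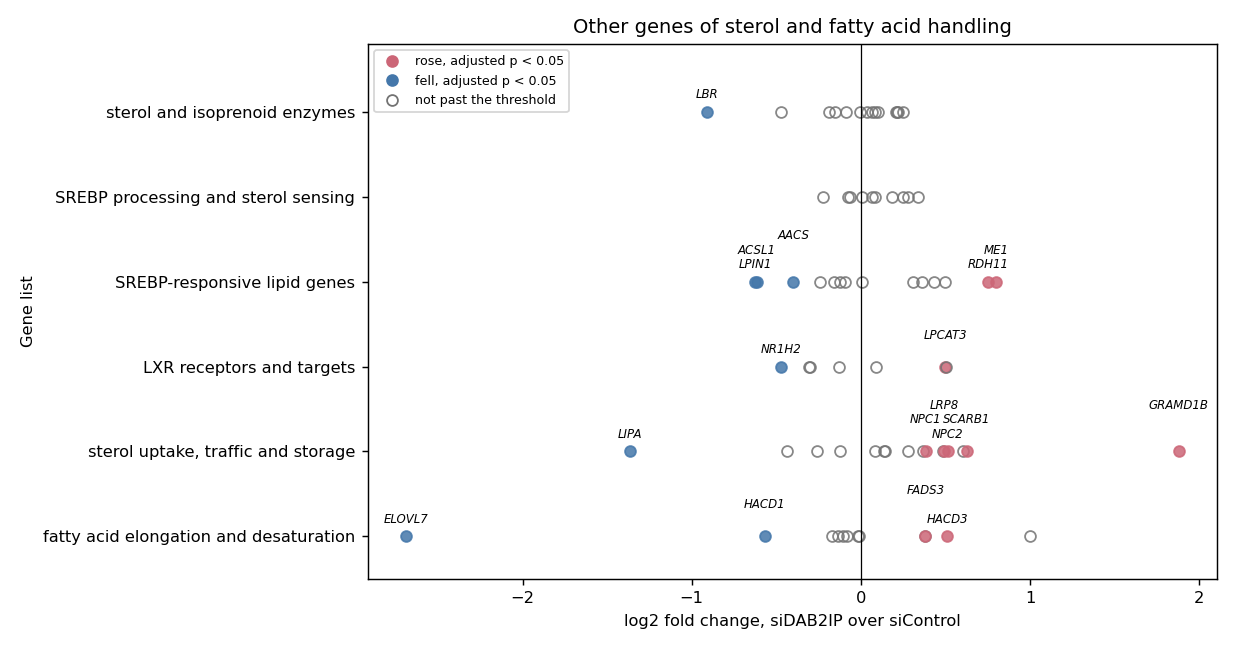
Log2 fold change of siDAB2IP over siControl for the 73 tested genes of 6 other lists of sterol and fatty acid handling, with 1 point per gene and names for the 18 that passed an adjusted p under 0.05 in edgeR. ELOVL7 at −2.69 and LIPA at −1.36 lie farthest to the left and GRAMD1B at 1.88 farthest to the right.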

How the data were processed

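RNA-Seq was performed on 6 libraries, 3 siControl and 3 siDAB2IP. The authors deposited whole-number counts per gene, without normalization, and FPKM values, counts per gene length and library total. The submitters' processing notes name STAR 2.6.1d, featureCounts 1.5.0-p3, DESeq2 1.20.0, edgeR 3.24.3 and hg38; strandedness is not given in the sources used here. Groups were compared with the quasi-likelihood test of edgeR 4.0.16 in R 4.3.3 (filterByExpr, TMM, glmQLFit and glmQLFTest), with Benjamini-Hochberg adjustment over 15430 genes. Standard errors come from the F statistic. Alternatives were DESeq2 1.42.0, other scalings and filters, limma 3.58.1 on log2(FPKM + 1) or log2(FPKM + 0.1), a replicate block, and leaving out each library. Scripts were tested on simulated counts.

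Members and lists were chosen with earlier results of these data known. All members were named, with DAB2IP and at most 6 called genes of each other list by smallest p. 1 gene of these lists is not reported here and was left out of their counts.

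Libraries with the same replicate number in the labels deviated together across genes (r = 0.265, 0.155 and 0.255). For different numbers, r was −0.278 to 0.0207. The number was used for the pairs and the replicate block, while the main test was unpaired. Over the 32 members alone, same-number r was 0.26, 0.204 and 0.119, and that of different numbers ranged from −0.47 to 0.407. No 2 libraries were duplicates.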

Additional observations from a re-analysis of the deposited data

How the results depend on the processing

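Under 15 alternatives the median log2 fold change of the members stayed between 0.06 and 0.17, and INSIG1 passed in 14, all but limma on log2(FPKM + 1) with every gene that had a value (adjusted p = 0.0595). That setting left 0 members risen and 0 fallen, with 2 and 2 of the other pathway genes and 176 and 202 of all genes. With log2(FPKM + 1), 1 member rose and 2 fell, with 684 and 817 of all 12412 genes tested. With log2(FPKM + 0.1), 1 rose and 1 fell, with 659 and 758 of all genes. ABCA1 was below the FPKM filter of both. Scaling by library size only gave 4 members risen and 1 fallen, with 1209 and 1091 of all genes. With the replicate block, 6 members rose and 16 of the other pathway genes. Leaving out each library gave 0 to 5 members risen and 1 to 2 fallen, 3 to 12 and 4 to 8 of the other pathway genes, and 264 to 1172 and 459 to 1352 of all genes, where both all-gene counts were lowest without siControl replicate 2; fits with 2 libraries in a group have less power. The block changed no other member's call than PMVK, SQLE, NSDHL and SCD. Only members that did not pass changed sign. With library size scaling, the log2 fold change of ACAT2 became 0.031 and of MVD 0.025. Without 1 library, signs turned for SREBF1 (−0.16 to 0.20), SREBF2 (−0.14 to 0.064), ACAT2 (−0.085 to 0.086), HMGCS1 (−0.25 to 0.024), MVD (−0.24 to 0.088), IDI1 (−0.12 to 0.13), HSD17B7 (−0.35 to 0.013) and STARD4 (−0.091 to 0.18). The causes were not tested. Depth limits low genes such as ABCA1, at a few CPM.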
